A study of Mus musculus with 17 samples.

Results

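The transcripts of 39 genes of autophagy were followed in type 1 and type 2 conventional dendritic cells (cDC1s and cDC2s) that had met material from dying tumor cells. The 39 genes encode the core autophagy machinery and 5 soluble cargo receptors. They were taken by name from a fixed list, matched to the identifiers of the count table through mouse gene symbols, and all 39 were found among the 31091 gene identifiers. All of them passed the filter on low counts in every comparison. The lowest count in any sample was 22, for Atg10, and the highest was 93837, for Sqstm1.

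Splenic cDCs came from 8-week-old female C57BL/6JRj mice carrying B16 melanoma cells that express FLT3L, a growth factor that expands cDCs, and spleens of at least 2 mice were pooled per experiment. CD11c+ cells were cultured for 6 h in the presence of GM-CSF with medium of cumate-treated TC-1 cells, a C57BL/6-derived lung epithelial tumor line with HPV16 E6 and E7 and H-ras, and were then sorted into cDC1s and cDC2s. In the WT groups the medium came from live parental TC-1 cells. In the BimS groups it came from apoptotic TC-1-iBimS cells, in which cumate switches on the BH3-only protein BimS, and in the RIPK3 groups from necroptotic TC-1-iRIPK3 cells, in which cumate switches on an oligomerizing RIPK3. Each of these inducible lines is a single clone, and the medium was added with all its contents, so dead cells, debris and soluble material came together. There were 3 samples in each of 5 groups and 2 samples of cDC2s with RIPK3 medium. Cells were sorted by lineage markers and not by uptake. The comparisons ask whether the autophagy transcripts differed after exposure to dying-cell medium, between both modes of death, and between cDC1s and cDC2s.

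Macroautophagy encloses cytoplasm in a double membrane, the autophagosome, and delivers it to lysosomes. The ULK kinase complex starts the process, a class III PI3-kinase complex marks the membrane with PI3P, WIPI and ATG2 proteins bring lipid to it, and a pair of ubiquitin-like conjugation systems attach proteins of the ATG8 family (LC3 and GABARAP) to the membrane. Cargo receptors bind ubiquitinated cargo at one end and ATG8 proteins at the other. In phagocytes a part of the same machinery attaches LC3 to single-membrane phagosomes that hold engulfed cells, a process named LC3-associated phagocytosis, and in dendritic cells autophagy is also known for its part in antigen processing. The level of a transcript says nothing about autophagic flux, which was not measured here.

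The samples held between 16095159 and 21645289 reads on genes, with a median of 18986002. Levels are given as CPM, the reads of a gene relative to the library size after TMM scaling, and, to compare genes with each other, as CPM per kb of the canonical transcript. Summed CPM of 7 cDC1 markers ranged from 1225 to 1511 in the cDC1 samples and from 95.7 to 127 in the cDC2 samples, and that of 6 cDC2 markers from 2.51 to 4.04 and from 271 to 364, respectively. In both cell types the summed own markers were lower with RIPK3 than with WT medium, without overlap (1225 to 1260 against 1330 to 1511 in cDC1s, 271 to 307 against 318 to 364 in cDC2s). The lists split: in cDC1s the mean CPM of Irf8 was 309 with WT and 176 with RIPK3 medium and that of Wdfy4 596 and 449, whereas Clec9a was at 241 and 285 and Xcr1 at 152 and 226. The part of this in the results below was not tested. Markers of macrophages summed to between 1.26 and 9.71 CPM, and those of B cells, of T and NK cells, of plasmacytoid dendritic cells, of neutrophils and of melanoma cells stayed at 2.82 or lower in every sample. Of the epithelial markers, Krt8, Krt18 and Epcam had group means of 1.20 CPM or lower, and Cdh1 ranged from 20.4 to 32.7 CPM in the means of the cDC2 groups. In bulk samples a lower level cannot be told apart from fewer cells that express the gene.

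Between WT and dying-cell media, 16 of the 39 genes passed the test in at least 1 of 4 comparisons, or 23 with a block for the replicate number. Of the genes tested in both cell types, 24.8% did so, or 41.0% with the block, and of the 10160 at least as abundant as the least abundant member 3960 did, or 6571 with the block (64.7%). Sqstm1 and Ulk1 rose in all 4 comparisons with WT medium, Sqstm1 with the larger log2 fold change except with RIPK3 medium in cDC2s (0.56 against 0.57). In cDC1s, 9 genes passed the threshold with BimS medium, 5 higher and 4 lower, and 13 with RIPK3 medium, 8 higher and 5 lower. In cDC2s, 4 genes passed with BimS medium, 2 higher and 2 lower, and 4 with RIPK3 medium, 3 higher and 1 lower. With 1 sample left out, the counts in cDC2s ranged from 3 to 8 and from 2 to 8. Significance was tested with edgeR's quasi-likelihood test across all genes, with Benjamini-Hochberg adjusted p under 0.05, and every adjusted p below is from this test unless another is named. Of all genes tested, 13.2% passed with BimS medium in cDC1s (7.31% higher, 5.89% lower), 16.5% with RIPK3 medium in cDC1s (8.34% higher, 8.19% lower), 7.01% with BimS medium in cDC2s (3.80% higher, 3.21% lower) and 7.21% with RIPK3 medium in cDC2s (3.93% higher, 3.28% lower). The members' own shares were 23.1%, 33.3%, 10.3% and 10.3%. Among the 10162 genes at least as abundant as the least abundant member, the shares were 23.0%, 28.7%, 12.2% and 12.6%, near those of the members. This set has only a lower bound and was not matched to the levels of the members. Their median log2 fold changes were 0.03, 0.09, 0.01 and 0.08, against 0.00, -0.01, -0.02 and -0.02 over all genes tested. Comparisons with BimS and with RIPK3 medium share the WT samples, so similar values in both are not independent.

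Replicate numbers paired the samples within a cell type, and a block for the number raised the counts, most in cDC2s. The block leaves little spread between samples to estimate from, above all in cDC2s. Its small p-values therefore lean on spread shared across genes. Calls made only with the block were not retested with a sample left out. With the block, 13 members passed with BimS medium and 14 with RIPK3 medium in cDC1s, beside 17.9% and 21.0% of all genes, and 13 and 17 in cDC2s, beside 21.3% and 21.4% of all genes. Among genes at least as abundant as the least abundant member, the shares with the block were 31.3% and 36.7% in cDC1s and 37.5% and 37.9% in cDC2s, against 33.3%, 35.9%, 33.3% and 43.6% of the members. Where the block changes the call of a member between media, its value is given below. Across cell types same-numbered samples correlated above 0.1 in 19 of 24 pairs and differently numbered ones in 5 of 48. Pairing was taken as given only where every same-numbered pair did so, so comparisons of cDC1s with cDC2s are led by the fit without the block. Both cell types were sorted from CD11c+ cultures, so same-numbered samples of both may share a culture. For this reason the calls of the interactions are given with the block as well. The labels do not say whether replicates came from separate mice or cultures, so all p-values measure the spread between these samples.

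**Figure D1:**
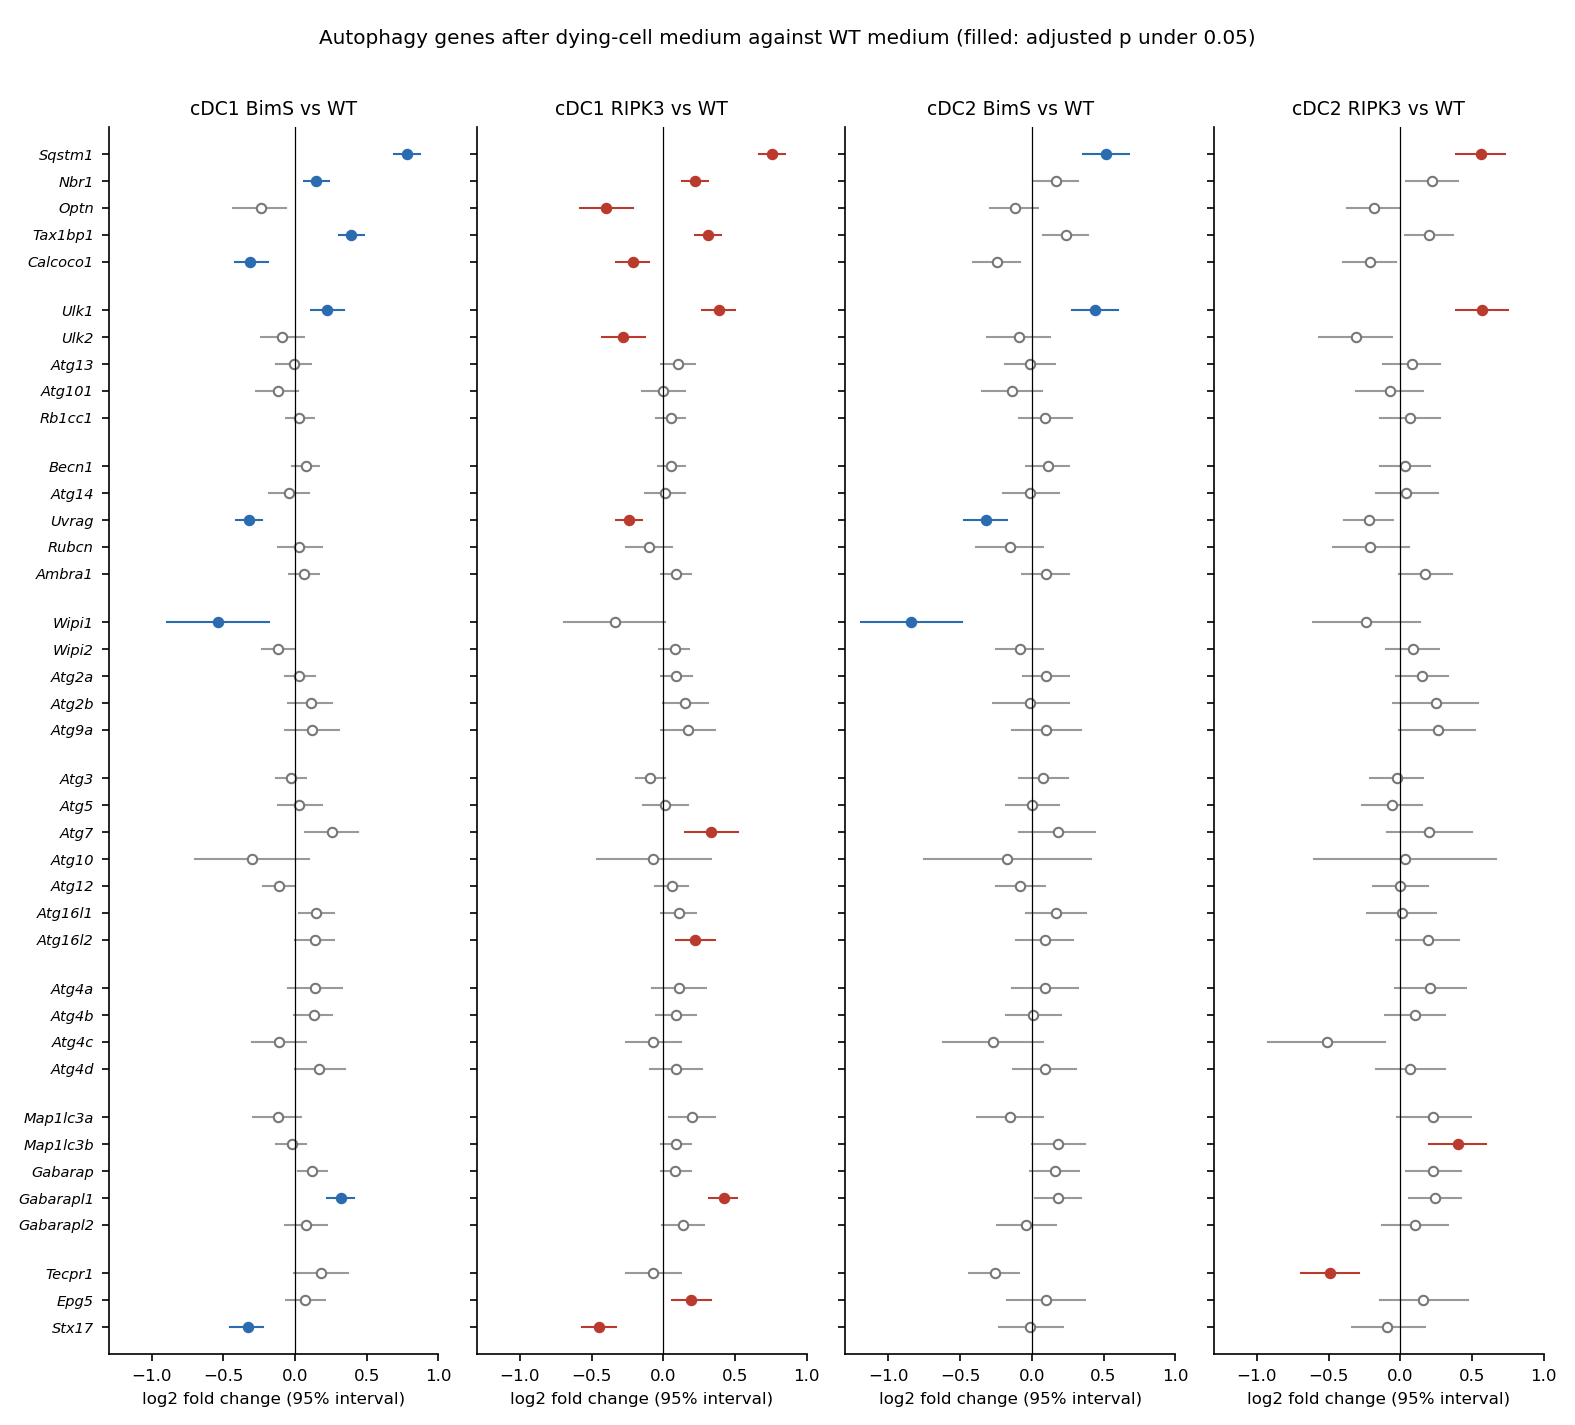
log2 fold changes of the 39 autophagy genes with BimS (blue) or RIPK3 (red) medium against WT medium in cDC1s and cDC2s, with 95% intervals, ordered by role from cargo receptors to fusion factors. Filled points had an adjusted p under 0.05 and open grey points did not: Sqstm1 and Ulk1 are filled and to the right in all 4 panels, and most of the conjugation and protease genes lie near 0.

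All 5 cargo receptors were measured, and they moved in both directions. SQSTM1 (p62) collects ubiquitinated proteins into bodies that autophagy removes, and it also binds KEAP1, the inhibitor of NRF2. Sqstm1 was the most abundant autophagy transcript in every group, with 814 CPM per kb in cDC1s with WT medium and 696 CPM per kb in cDC2s with WT medium, and it ranked 23 and 27 of all genes by CPM in these groups. In cDC1s the CPM of Sqstm1 were 2677, 2636 and 2663 with WT medium, 4688, 4386 and 4626 with BimS medium and 4416, 4413 and 4704 with RIPK3 medium. Every sample with dying-cell medium was above every WT sample, and the samples with BimS and RIPK3 medium overlapped. The log2 fold change was 0.78 (SE 0.0431, adjusted p = 1.75e-16) with BimS and 0.76 (SE 0.0431, adjusted p = 2.65e-16) with RIPK3 medium, a level 1.72-fold and 1.70-fold that with WT medium. In cDC2s the CPM were 2156, 2287 and 2382 with WT medium, 3140, 3155 and 3499 with BimS medium and 3391 and 3354 with RIPK3 medium. Here, too, the groups did not overlap with WT, and the rises were 0.52 (SE 0.0748, adjusted p = 0.000112) and 0.56 (SE 0.0826, adjusted p = 0.00012). The difference between cell types in the response of Sqstm1 to BimS medium was 0.26 on the log2 scale (95% interval 0.09 to 0.43), and it did not pass the threshold without the block (adjusted p = 0.195) and passed with it (adjusted p = 0.0199).

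TAX1BP1, a receptor for ubiquitinated aggregates and bacteria, was the second most abundant receptor. Tax1bp1 in cDC1s was at 843, 844 and 822 CPM with WT medium, 1089, 1098 and 1104 CPM with BimS medium and 1057, 1022 and 1030 CPM with RIPK3 medium. The 3 groups were separate, with BimS highest, and the log2 fold changes against WT were 0.39 (SE 0.0426, adjusted p = 6.06e-09) and 0.31 (SE 0.0426, adjusted p = 6.23e-07). In cDC2s Tax1bp1 was at 718, 704 and 671 CPM with WT, 840, 828 and 806 CPM with BimS and 838 and 778 CPM with RIPK3 medium. These samples also lay above WT, but the changes of 0.24 and 0.20 passed only with the replicate block (adjusted p = 0.0567 and 0.178 without it, 1.4e-08 and 0.00105 with it).

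NBR1, which binds p62 and ubiquitin, showed small differences. Nbr1 was at 205, 208 and 210 CPM in cDC1s with WT, at 232, 230 and 229 CPM with BimS and at 247, 240 and 239 CPM with RIPK3 medium. The groups did not overlap, and the rises were 0.15 (adjusted p = 0.0218) and 0.22 (adjusted p = 0.000421). The call with BimS medium was lost when any one of the 3 WT or 3 BimS samples was left out (adjusted p 0.0603 to 0.111). In cDC2s the values of 0.17 and 0.22 passed only with the block (adjusted p = 0.0011 and 0.000461).

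The other two receptors moved the other way. Calcoco1, whose product is a receptor for the endoplasmic reticulum and Golgi, was at 85.8, 86.9 and 85.8 CPM in cDC1s with WT, at 71.6, 67.1 and 70.3 CPM with BimS and at 74.8, 69.6 and 78.9 CPM with RIPK3 medium. It fell by 0.31 (SE 0.0557, adjusted p = 9.13e-05) and by 0.21 (SE 0.0557, adjusted p = 0.00549) on the log2 scale, and without RIPK3 replicate 2 the latter was -0.17 (adjusted p = 0.0687). Optineurin, a receptor for damaged mitochondria and bacteria, is encoded by Optn. Optn in cDC1s was at 60.1, 53.7 and 68.0 CPM with WT, 55.5, 47.7 and 50.5 CPM with BimS and 48.5, 40.9 and 49.0 CPM with RIPK3 medium. It fell with RIPK3 medium, by 0.40 on the log2 scale (SE 0.0866, adjusted p = 0.00303), where the groups were separate. With BimS medium the groups overlapped and the value was -0.24 (adjusted p = 0.0741, and 0.000274 with the block). In cDC2s Calcoco1 had values of -0.24 and -0.21 (adjusted p = 0.0703 and 0.191, and 1.16e-05 and 0.00175 with the block), and Optn passed with RIPK3 medium under the block (-0.18, adjusted p = 0.0226).

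**Figure D2:**
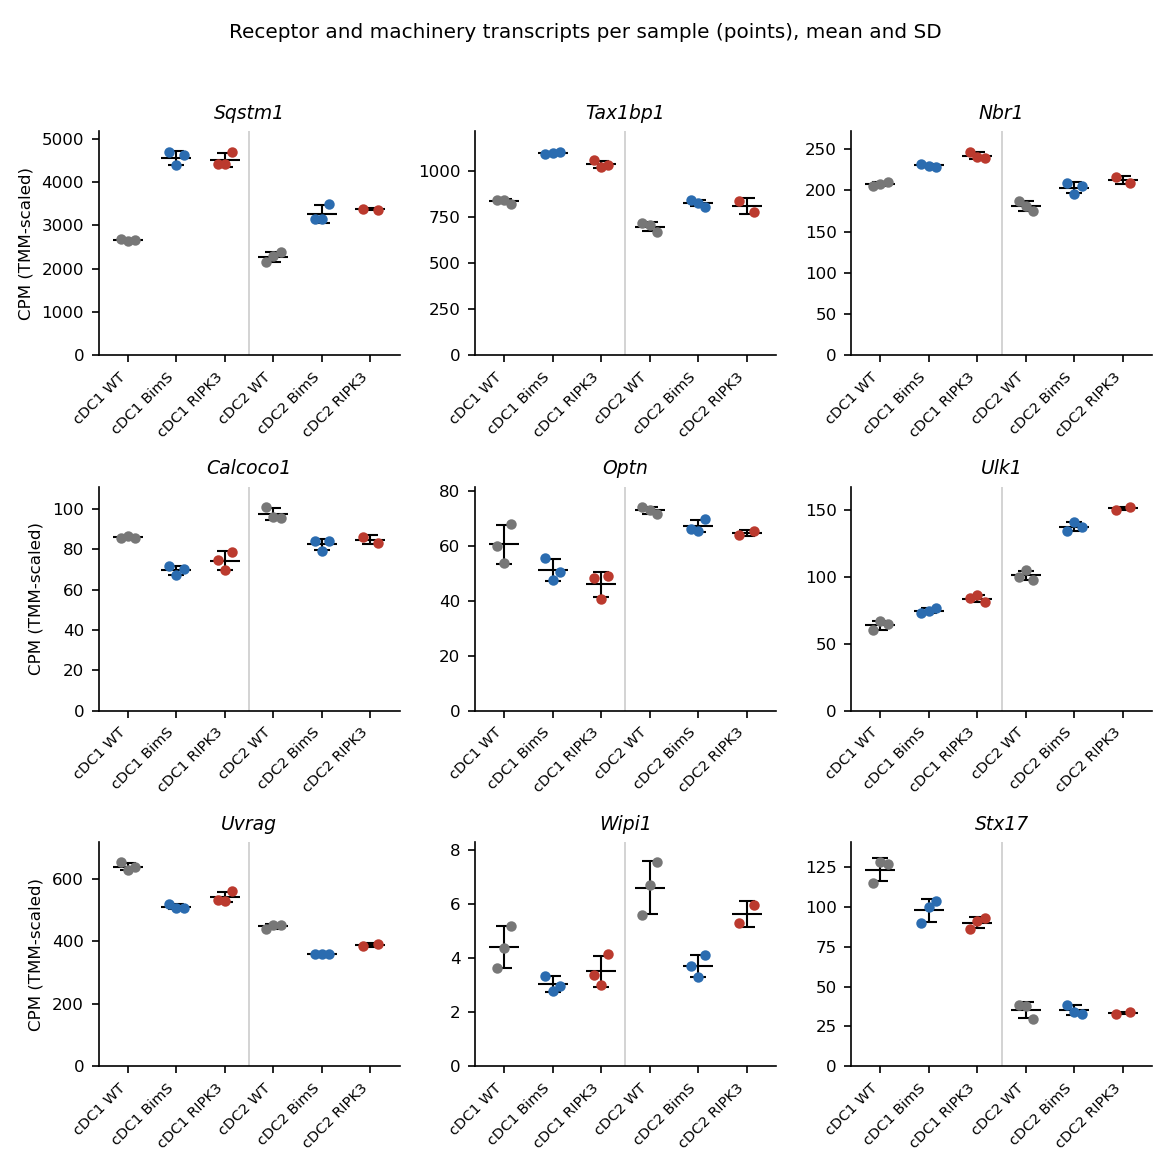
CPM of 9 autophagy transcripts in each sample (points; y axis from 0), with mean and SD per group, for cDC1s and cDC2s with WT (grey), BimS (blue) and RIPK3 (red) medium. The Sqstm1 points of cDC1s lie between 2636 and 2677 with WT medium and between 4386 and 4704 with dying-cell medium, and Stx17 is at 29.6 to 38.6 in all cDC2 samples.

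Promoter sequences were read for the receptors with the largest rise, Sqstm1 and Tax1bp1, because Sqstm1 is a textbook target of NRF2 (through antioxidant response elements) and of the TFEB family (through E-boxes of the CLEAR type), and for Atg3, the only one of the members searched with such an E-box. RefSeq windows from 250 bases before to 50 bases after the start were given for 33 of the 39 genes (GRCm38.p6). The letters searched, on both strands, were TGACNNNGC for the antioxidant response element, TCACGTGA for the E-box and TGATGNAA for a site of ATF4 with C/EBP. The first was found in 4 of the 33 genes (Tax1bp1, Ulk2, Atg13 and Map1lc3b) and in 14.0% of all 27025 genes with a window, or 12.4% of the windows. The second was found in 1 of 33 and in 1.12% of all genes (0.974% of windows), and the third in 0 of 33 and in 4.51% of all genes (3.97% of windows). The 250 bases before the start are printed 5′ to 3′ on the strand of the gene, with the matched letters in capitals. Sqstm1 lies on the minus strand at chr11:50210821-50211070, and its window held none of the 3 sets of letters. Tax1bp1 lies on the plus strand, with the second of its windows at chr6:52713915-52714164, and Atg3 on the plus strand at chr16:45158579-45158828. A match is a stretch of letters and not a binding site, and its absence concerns this window alone.
Sqstm1: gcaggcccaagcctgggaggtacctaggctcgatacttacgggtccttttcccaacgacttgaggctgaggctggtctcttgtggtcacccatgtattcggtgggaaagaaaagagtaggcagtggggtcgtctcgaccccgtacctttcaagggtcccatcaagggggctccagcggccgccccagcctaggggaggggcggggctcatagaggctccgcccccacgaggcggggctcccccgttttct
Tax1bp1: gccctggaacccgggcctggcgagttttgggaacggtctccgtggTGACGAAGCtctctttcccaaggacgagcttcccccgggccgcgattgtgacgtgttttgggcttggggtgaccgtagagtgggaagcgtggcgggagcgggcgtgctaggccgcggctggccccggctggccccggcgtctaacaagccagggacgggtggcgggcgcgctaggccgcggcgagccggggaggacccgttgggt
Atg3: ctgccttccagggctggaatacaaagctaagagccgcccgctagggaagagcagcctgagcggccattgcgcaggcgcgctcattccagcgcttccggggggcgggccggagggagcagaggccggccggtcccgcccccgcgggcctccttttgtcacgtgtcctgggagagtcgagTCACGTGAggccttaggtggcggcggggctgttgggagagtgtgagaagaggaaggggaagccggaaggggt

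Of the 5 genes of the initiation complex, the kinase gene Ulk1 rose in all 4 comparisons with WT medium. In cDC1s Ulk1 was at 60.2, 66.7 and 65.0 CPM with WT, 73.0, 74.1 and 76.9 CPM with BimS and 84.1, 86.3 and 80.9 CPM with RIPK3 medium. The groups were separate and stood in the order WT, BimS, RIPK3. The rises against WT were 0.22 (SE 0.0561, adjusted p = 0.00469) and 0.39 (SE 0.0559, adjusted p = 1.47e-06), and without WT replicate 1 the former was 0.18 (adjusted p = 0.0698). The difference of RIPK3 from BimS medium, 0.17, passed only with the block (adjusted p = 0.0898 without it, 0.017 with it). In cDC2s Ulk1 was at 100, 105 and 97.9 CPM with WT, 134, 141 and 137 CPM with BimS and 150 and 152 CPM with RIPK3 medium, again in separate groups in the same order. The rises were 0.44 (SE 0.0773, adjusted p = 0.000865) and 0.57 (SE 0.0854, adjusted p = 0.000128). Its paralog Ulk2 went the other way in cDC1s with RIPK3 medium: it was at 33.4, 29.4 and 32.2 CPM with WT and at 26.1, 27.0 and 25.3 CPM with RIPK3 medium, and fell by 0.28 (SE 0.0729, adjusted p = 0.00547). That call was lost without WT replicate 1 (-0.24, adjusted p = 0.0529). In cDC2s Ulk2 with RIPK3 medium had a value of -0.31 (adjusted p = 0.151, and 0.000226 with the block). The scaffold genes Atg13, Atg101 and Rb1cc1 passed in none of the 6 comparisons between media.

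Among the 5 genes of the class III PI3-kinase complex and its regulators, only Uvrag changed in a comparison between media. UVRAG is a subunit of the form of the complex that serves endosomes and autophagosome maturation, whereas ATG14 belongs to the form that starts autophagosomes. Uvrag in cDC1s was at 653, 630 and 637 CPM with WT, 521, 508 and 506 CPM with BimS and 533, 531 and 561 CPM with RIPK3 medium. In every sample with dying-cell medium the level was below every WT sample. It fell by 0.32 (SE 0.0443, adjusted p = 7.87e-07) and by 0.24 (SE 0.0443, adjusted p = 8.05e-05). In cDC2s it was at 440, 452 and 453 CPM with WT, 359, 360 and 360 CPM with BimS and 384 and 392 CPM with RIPK3 medium. It fell by 0.32 with BimS medium (SE 0.0716, adjusted p = 0.00734, and 0.0559 without WT replicate 2). The value with RIPK3 medium, -0.22, passed only with the block (adjusted p = 0.129 without it, 5.41e-05 with it). Becn1, Atg14, Rubcn and Ambra1 had values between -0.21 and 0.17 over the 4 comparisons with WT medium and passed in none. With the block, Becn1 passed with BimS medium in cDC2s (0.11, adjusted p = 0.0451) and Rubcn, the gene of an inhibitor of the complex, with RIPK3 medium in cDC2s (-0.26, adjusted p = 0.0196).

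WIPI1 and WIPI2 bind PI3P, and WIPI2 recruits the conjugation machinery. Wipi1 was one of the least abundant members. In cDC1s its CPM were 3.64, 4.38 and 5.21 with WT, 3.36, 2.80 and 2.99 with BimS and 3.39, 3.01 and 4.14 with RIPK3 medium, so the BimS samples lay just below WT and the RIPK3 samples overlapped with both. It fell by 0.54 with BimS medium (SE 0.175, adjusted p = 0.0347), and this call was lost without WT replicate 2 or 3 and without BimS replicate 2 or 3 (adjusted p 0.071 to 0.267). In cDC2s Wipi1 was at 5.59, 6.71 and 7.55 CPM with WT, 3.71, 3.30 and 4.12 CPM with BimS and 5.30 and 5.98 CPM with RIPK3 medium. It fell by 0.84 with BimS medium (SE 0.168, adjusted p = 0.00274), a level 1.79-fold lower. With RIPK3 medium the groups overlapped, and RIPK3 differed from BimS medium by 0.60 (adjusted p = 0.268, and 0.00235 with the block). Wipi2 did not pass against WT medium, but was higher with RIPK3 than with BimS medium in cDC1s, where its CPM were 77.6, 78.0 and 75.3 with BimS and 87.5, 91.7 and 85.5 with RIPK3 medium. The lipid transfer genes Atg2a and Atg2b and the scramblase gene Atg9a passed in no comparison between media, except Atg2a under the block with RIPK3 medium in cDC2s (0.15, adjusted p = 0.0279).

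The 7 conjugation genes and the 4 genes of ATG4 proteases, which process ATG8 proteins and release them from membranes, had few calls. Only Atg7 and Atg16l2 passed, both higher with RIPK3 medium in cDC1s. ATG7 is the E1-like enzyme of both conjugation systems. Atg7 was at 12.9, 13.5 and 12.9 CPM with WT and at 15.1, 17.1 and 17.3 CPM with RIPK3 medium (log2 fold change 0.33, SE 0.0899, adjusted p = 0.00691). With BimS medium it was at 15.9, 15.5 and 15.4 CPM, also above every WT sample, with a value of 0.26 (adjusted p = 0.0546, and 0.0239 with the block). Atg16l2, a paralog of the conjugation scaffold Atg16l1, rose by 0.22 (adjusted p = 0.0158). This call was lost without WT replicate 2, WT replicate 3 or RIPK3 replicate 1 (adjusted p 0.0568 to 0.0631). In cDC2s with RIPK3 medium Atg16l2 passed only with the block (0.21, adjusted p = 0.0416). Atg16l1 passed only with the block, with BimS medium in cDC1s (0.15, adjusted p = 0.0419) and in cDC2s (0.17, adjusted p = 0.0313). Atg3, Atg5 and Atg10 passed in none of the comparisons between media, with or without the block, and Atg12 only with the block, for RIPK3 against BimS medium in cDC1s. No protease gene passed, and the value of Atg4c with RIPK3 medium in cDC2s, -0.51, passed only with the block (adjusted p = 0.137 without it, 3.27e-05 with it). Its CPM there were 11.3, 10.7 and 8.74 with WT and 8.28 and 6.21 with RIPK3 medium.

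Of the 5 ATG8 genes, Gabarapl1 was the most abundant in every group and was the one that rose in cDC1s. Gabarapl1 in cDC1s was at 361, 375 and 357 CPM with WT, 451, 460 and 448 CPM with BimS and 458, 494 and 508 CPM with RIPK3 medium. Every sample with dying-cell medium was above WT, and the rises were 0.32 (SE 0.0469, adjusted p = 3.48e-06) and 0.42 (SE 0.0469, adjusted p = 9.01e-09). In cDC2s it was at 834, 875 and 952 CPM with WT, 958, 998 and 1062 CPM with BimS and 1065 and 1043 CPM with RIPK3 medium. These groups also stood above WT, with values of 0.18 and 0.24 (adjusted p = 0.2 and 0.105, and 2.9e-05 and 5.47e-09 with the block).

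Map1lc3b encodes LC3B, the usual marker of autophagosomes. It was at 98.5, 98.0 and 98.1 CPM in cDC1s with WT, 99.1, 95.9 and 94.6 CPM with BimS and 98.9, 103 and 111 CPM with RIPK3 medium. Neither value in cDC1s passed, and the WT samples lay between 98.0 and 98.5 CPM. In cDC2s Map1lc3b was at 132, 137 and 161 CPM with WT, 154, 160 and 174 CPM with BimS and 184 and 196 CPM with RIPK3 medium. It rose by 0.40 with RIPK3 medium (SE 0.0964, adjusted p = 0.0118), where both samples were above all WT and BimS samples. That call was lost without WT replicate 2 and without either RIPK3 sample (adjusted p 0.0713 to 0.178). With the block, BimS medium (0.19, adjusted p = 0.000305) and RIPK3 against BimS medium (0.28, adjusted p = 2.23e-06) passed as well.

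Map1lc3a, which encodes LC3A, differed between both modes of death. In cDC1s it was at 19.7, 20.9 and 21.4 CPM with WT, 18.9, 19.0 and 19.0 CPM with BimS and 22.2, 23.1 and 26.2 CPM with RIPK3 medium, so that BimS lay below and RIPK3 above WT. RIPK3 was higher than BimS medium by 0.32 (SE 0.0806, adjusted p = 0.0128), and neither passed against WT without the block. With it, RIPK3 medium passed against WT in cDC1s (0.20, adjusted p = 0.0362) and in cDC2s (0.29, adjusted p = 0.000962). In cDC2s it was at 28.7, 37.3 and 36.8 CPM with WT, 27.2, 31.6 and 33.6 CPM with BimS and 40.4 and 40.7 CPM with RIPK3 medium. The same comparison gave 0.39 (adjusted p = 0.262), and 0.45 with the block (adjusted p = 2.87e-07).

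Gabarap was at 215, 204 and 207 CPM in cDC1s with WT, 240, 218 and 221 CPM with BimS and 219, 215 and 230 CPM with RIPK3 medium, and at 193, 197 and 229 CPM in cDC2s with WT, 228, 227 and 238 CPM with BimS and 245 and 243 CPM with RIPK3 medium. With the block it passed with BimS medium in cDC1s (0.12, adjusted p = 0.0388) and with both media in cDC2s (0.16, adjusted p = 0.00116, and 0.28, adjusted p = 4.22e-07), and without it in none. Gabarapl2 was at 31.8 to 40.9 CPM in the cDC1 samples and at 32.3 to 41.8 CPM in the cDC2 samples, with no call between media except RIPK3 against BimS medium in cDC2s under the block (0.21, adjusted p = 0.0455).

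**Figure D3:**
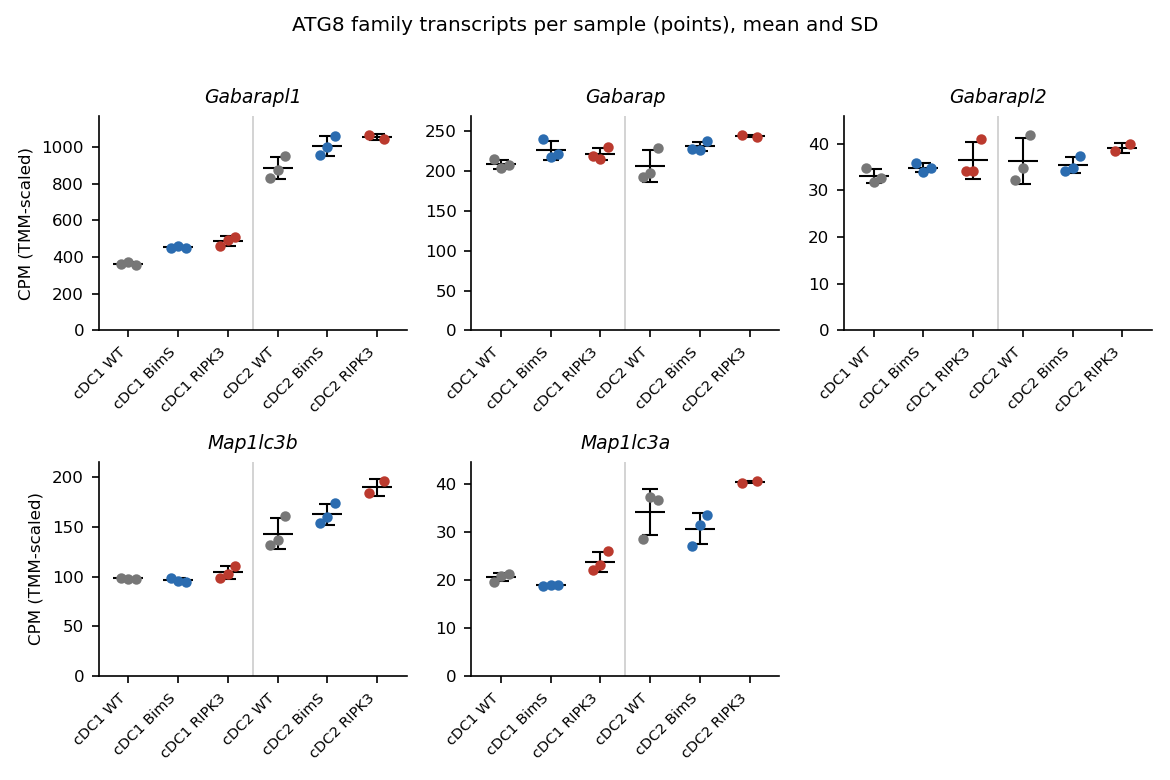
CPM of the 5 ATG8 family transcripts in each sample (points; y axis from 0), with mean and SD per group, colored by medium as WT (grey), BimS (blue) and RIPK3 (red). Gabarapl1 lies between 357 and 508 in cDC1s and between 834 and 1065 in cDC2s, whereas Gabarap and Gabarapl2 overlap between the cell types.

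The make-up of the family differed accordingly. Per kb, Gabarapl1 made up 42.3% ± 0.863 (SD, n = 3) of the summed ATG8 transcripts in cDC1s with WT medium, 47.0% ± 1.01 (n = 3) with BimS and 47.7% ± 0.862 (n = 3) with RIPK3 medium. In cDC2s its share was 58.8% ± 0.823 (n = 3), 59.7% ± 0.106 (n = 3) and 57.7% ± 0.886 (n = 2), respectively. The share of Map1lc3b in cDC1s was 23.3% ± 0.197 with WT, 20.5% ± 0.139 with BimS and 20.9% ± 0.162 with RIPK3 medium (SD, n = 3 each). The family sum was 473 ± 4.15 CPM per kb in cDC1s with WT medium and 829 ± 67.9 CPM per kb in cDC2s with WT medium (SD, n = 3 each).

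Of the 3 genes of fusion and maturation, Stx17 fell in cDC1s and Tecpr1 in cDC2s. Syntaxin 17 is the SNARE protein of autophagosomes that drives fusion with lysosomes. Stx17 in cDC1s was at 115, 128 and 127 CPM with WT, 89.7, 99.8 and 104 CPM with BimS and 86.3, 91.4 and 93.0 CPM with RIPK3 medium. All samples with dying-cell medium were below all WT samples, with falls of 0.33 (SE 0.0576, adjusted p = 4.63e-05) and 0.45 (SE 0.058, adjusted p = 1.66e-07). In cDC2s Stx17 was at 38.5, 37.7 and 29.6 CPM with WT, 38.6, 33.8 and 33.0 CPM with BimS and 32.9 and 33.9 CPM with RIPK3 medium, with overlapping groups and no call.

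TECPR1 binds the ATG12–ATG5 conjugate and helps autophagosomes meet lysosomes. Tecpr1 in cDC2s was at 61.7, 62.4 and 67.3 CPM with WT, 54.1, 53.2 and 52.5 CPM with BimS and 43.4 and 47.9 CPM with RIPK3 medium. The groups were separate and stood in the order WT, BimS, RIPK3, and the fall with RIPK3 medium was 0.49 (SE 0.096, adjusted p = 0.00207). Without RIPK3 replicate 1 it was -0.42 (adjusted p = 0.0824). With BimS medium the value was -0.26 (adjusted p = 0.0696, and 2.7e-05 with the block). In cDC1s Tecpr1 overlapped between all 3 media, at 20.8 to 32.6 CPM. EPG5, a tether between autophagosomes and lysosomes, had 38.2, 40.9 and 41.7 CPM of its transcript in cDC1s with WT and 46.9, 48.0 and 43.1 CPM with RIPK3 medium. Epg5 rose by 0.19 (adjusted p = 0.0399), and the call was lost when any one of the 3 WT samples, RIPK3 replicate 1 or RIPK3 replicate 2 was left out (adjusted p 0.0508 to 0.206).

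Directly between both modes of death, 2 members passed in cDC1s, Map1lc3a (above) and Wipi2 (0.20, SE 0.054, adjusted p = 0.0276), both higher with RIPK3 medium, beside 4.15% of all genes. The call of Wipi2 was lost without RIPK3 replicate 2 or any one of the 3 BimS samples (adjusted p 0.052 to 0.157), and that of Map1lc3a without BimS replicate 3 or RIPK3 replicate 3 (adjusted p = 0.0512 and 0.083). With the block 5 members passed, beside 8.87% of all genes, the others being Ulk1, Atg12 (0.17, adjusted p = 0.0227) and Tecpr1 (-0.25, adjusted p = 0.00774). In cDC2s no member passed with edgeR, beside 0.379% of all genes. Here 4 members had an unadjusted p under 0.05, and DESeq2 and 3 limma fits also gave 0. With the block 8 members passed, beside 14.3% of all genes: higher with RIPK3 medium were Map1lc3a, Map1lc3b, Gabarapl2, Wipi1 and Wipi2 (0.19, adjusted p = 0.0057), and lower were Ulk2 (-0.28, adjusted p = 0.0139), Atg16l1 (-0.24, adjusted p = 0.00848) and Tecpr1 (-0.22, adjusted p = 0.0132). Over all 6 comparisons between media, 18 of the 39 genes passed at least once and 21 never, or 26 and 13 with the block. Of all genes 25.4% passed at least once, or 43.1% with the block, and of those at least as abundant as the least abundant member 40.0% and 67.6%.

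Whether cDC1s and cDC2s differed in their response was tested by interaction terms. Without a replicate block, no member passed with edgeR for BimS against WT, RIPK3 against WT or RIPK3 against BimS medium, where 0.870%, 1.14% and 0.0314% of all genes passed. Unadjusted p-values under 0.05 were reached by 5, 6 and 0 members, and DESeq2 and 3 limma fits gave 0 members in each. edgeR gave 1 member for BimS against WT without a filter on low counts. With the block, Sqstm1 and Tecpr1 (0.44, adjusted p = 0.0181) passed for BimS against WT and Map1lc3b (-0.36, adjusted p = 0.0134) for RIPK3 against WT. Calls of Stx17, Gabarapl1 or Tax1bp1 in cDC1s alone are therefore not shown to be differences between the cell types.

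Between cDC1s and cDC2s the median absolute log2 fold change of the members was 0.34, against 0.08 to 0.19 in the 6 comparisons between media, although members such as Sqstm1, Tax1bp1, Calcoco1, Ulk2 and Wipi1 had a larger value in at least 1 comparison between media. Among genes at least as abundant as the least abundant member, the median was 0.39, against 0.10 to 0.17 between media. The larger difference between cell types was thus not particular to the members. In a fit that also held the medium, 33 of the 39 genes passed, 14 higher and 19 lower in cDC1s, that is 84.6%. Of all genes tested 59.8% passed (30.4% higher, 29.4% lower in cDC1s), and of the genes at least as abundant as the least abundant member 79.3%. The median log2 fold change was -0.09 over the members and 0.03 over all genes. In WT medium alone, 29 members passed, 10 higher and 19 lower, beside 46.2% of all genes (22.5% higher, 23.7% lower) and 65.9% of those at least as abundant as the least abundant member.

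Fusion factors differed in both directions, and Stx17 had the largest difference of all members. Stx17 ranged from 86.3 to 128 CPM in the 9 cDC1 samples, with a median of 99.8, and from 29.6 to 38.6 CPM in the 8 cDC2 samples, with a median of 33.8. The cell types were separate, and Stx17 was higher in cDC1s by 1.58 on the log2 scale (SE 0.0615, adjusted p = 7.65e-19), that is 3.00-fold. Tecpr1 ranged from 20.8 to 32.6 CPM (median 26.4) in cDC1s and from 43.4 to 67.3 CPM (median 53.6) in cDC2s, a difference of -1.02 (SE 0.0672, adjusted p = 3.81e-13). Epg5 was higher in cDC1s by 0.47.

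The ATG8 family was either lower in cDC1s or did not pass. Gabarapl1 ranged from 357 to 508 CPM (median 451) in cDC1s and from 834 to 1065 CPM (median 978) in cDC2s, and the difference of -1.19 (SE 0.0391, adjusted p = 5.9e-22) amounts to a 2.28-fold higher level in cDC2s. Map1lc3b ranged from 94.6 to 111 CPM (median 98.5) and from 132 to 196 CPM (median 161), with -0.71 (SE 0.0485, adjusted p = 4.81e-14). Map1lc3a ranged from 18.9 to 26.2 CPM (median 20.9) and from 27.2 to 40.7 CPM (median 35.2), with -0.73 (SE 0.0562, adjusted p = 9.54e-13). For none of these 3 genes did a cDC1 sample reach a cDC2 sample. Gabarap and Gabarapl2 had differences of -0.05 (95% interval -0.13 to 0.04) and -0.09 (95% interval -0.19 to 0.02).

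Within several pairs of paralogs or partners the direction was opposite. Ulk1 was lower in cDC1s by the test, at -0.79 (SE 0.0409, adjusted p = 5.68e-17), and Ulk2 higher, at 0.17 (adjusted p = 0.00657). Uvrag was higher in cDC1s, with 506 to 653 CPM (median 533) against 359 to 453 CPM (median 388) in cDC2s (0.50, SE 0.0323, adjusted p = 1.31e-14), whereas Becn1, Atg14 and Ambra1 were lower, at -0.32, -0.30 and -0.28. Atg2b was higher in cDC1s, with 39.3 to 51.5 CPM (median 45.1) against 24.0 to 37.5 CPM (median 32.5), at 0.52 (SE 0.0667, adjusted p = 1.18e-07), and Atg2a lower, at -0.27. Atg4c was higher, with 11.9 to 14.3 CPM (median 13.2) against 6.21 to 11.3 CPM (median 8.84), at 0.59 (SE 0.0845, adjusted p = 4.13e-07), and Atg4b and Atg4d lower, at -0.51 and -0.39. Of the other genes of initiation and lipid supply, Wipi1 (-0.52), Wipi2 (-0.44), Rb1cc1 (-0.20) and Atg13 (-0.18, but 0.01 with limma on log2(count + 1)) were lower and Atg9a (0.35) higher in cDC1s.

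Atg3, the gene of the E2-like enzyme that lipidates ATG8 proteins, was higher in cDC1s, with 129 to 145 CPM (median 138) against 88.3 to 105 CPM (median 96.7). The difference was 0.53 (SE 0.0385, adjusted p = 2.01e-13), and the cell types did not overlap. Of the other conjugation genes, Atg7, Atg10 and Atg16l1 were higher and Atg5 and Atg12 lower in cDC1s, between -0.30 and 0.41. Of the cargo receptors, Sqstm1, Tax1bp1 and Nbr1 were higher in cDC1s, at 0.37, 0.34 and 0.19, and Optn and Calcoco1 lower, at -0.38 and -0.21, and these 5 overlapped between the cell types when all media were pooled. The 6 genes that did not pass in this fit were Atg101, Rubcn, Atg16l2, Atg4a, Gabarap and Gabarapl2, at -0.09 to 0.11.

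**Figure D4:**
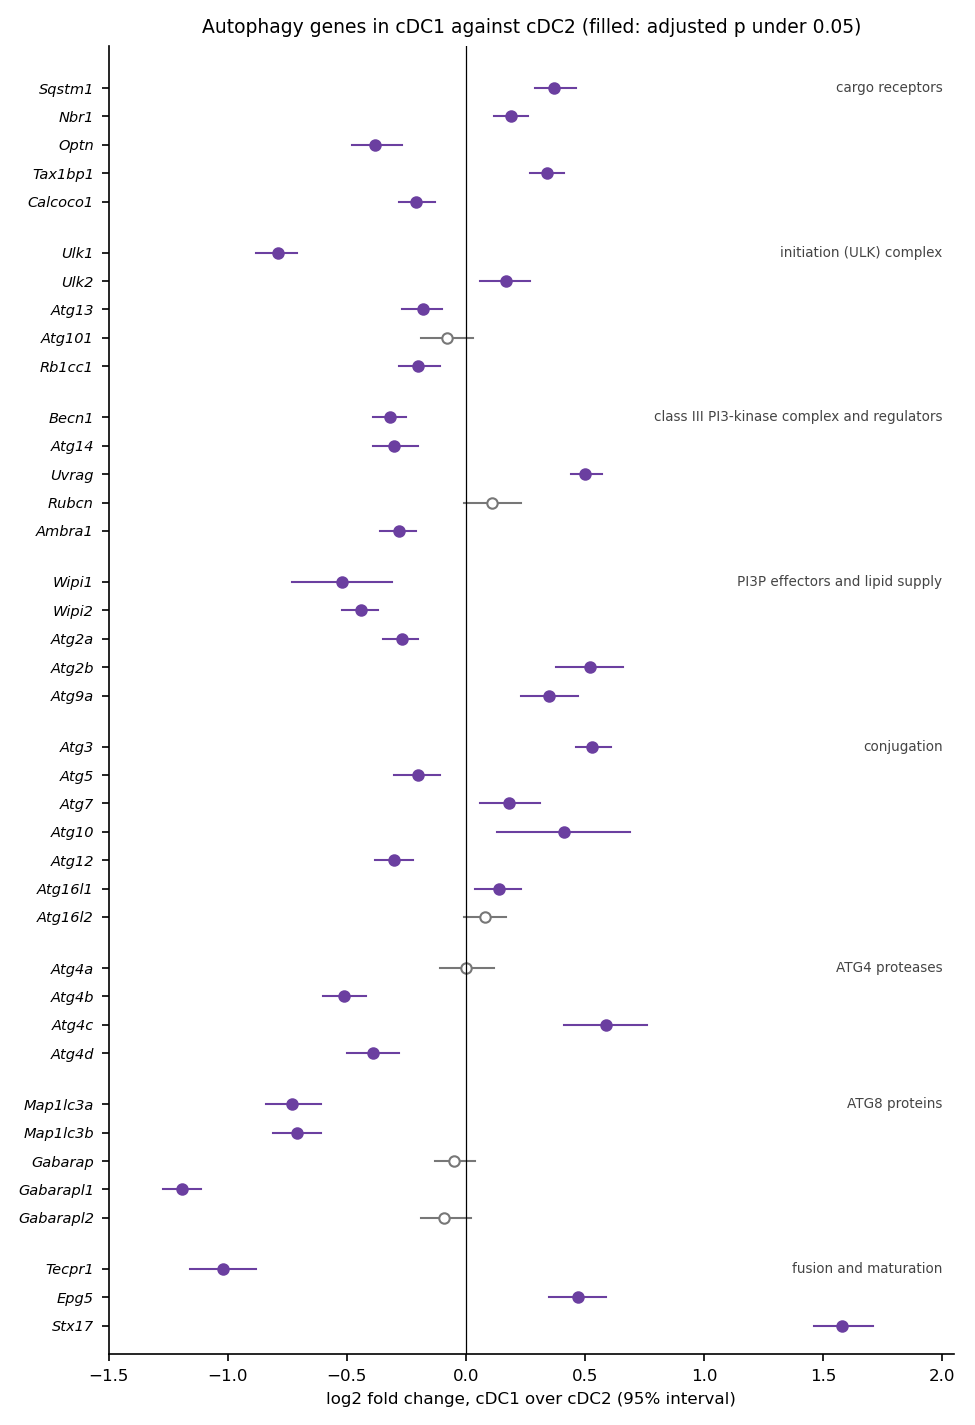
log2 fold change of each autophagy gene in cDC1s over cDC2s with its 95% interval, from a fit that also held the medium, and filled points where the adjusted p was under 0.05. Stx17 is farthest to the right at 1.58 and Gabarapl1 farthest to the left at -1.19, and no ATG8 gene lies to the right of 0 in this fit.

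Further genes around autophagy were followed as 4 lists. Of all genes, 13.2% and 16.5% passed in cDC1s and 7.01% and 7.21% in cDC2s with BimS and RIPK3 medium. With the block these shares were 17.9%, 21.0%, 21.3% and 21.4%. Among genes at least as abundant as the least abundant member, 23.0%, 28.7%, 12.2% and 12.6% passed without the block. The counts of the lists were not tested against these shares. Of 21 further machinery genes, 4 rose and 1 fell with BimS medium in cDC1s, 2 rose and 1 fell with RIPK3 medium in cDC1s, and 2 rose and 0 fell with either medium in cDC2s, with medians between -0.00 and 0.02. With the block, the counts in cDC2s were 4 higher and 2 lower with BimS and 3 higher and 1 lower with RIPK3 medium. Vmp1, the gene of a scramblase of the endoplasmic reticulum, rose by 0.72 (adjusted p = 1.63e-12) and 0.74 (adjusted p = 4.86e-13) in cDC1s and by 0.37 (adjusted p = 0.0151) and 0.40 (adjusted p = 0.0175) in cDC2s with BimS and RIPK3 medium. Its mean levels were 50.9 ± 1.07, 83.7 ± 1.39 and 85.3 ± 3.88 CPM (SD, n = 3) in cDC1s with WT, BimS and RIPK3 medium. Tbk1, whose kinase phosphorylates cargo receptors, rose by 0.44 and 0.43 in cDC1s and by 0.44 and 0.35 in cDC2s. Vps18, a subunit of the HOPS and CORVET tethers, rose with BimS medium in cDC1s (0.47, adjusted p = 6.05e-08) and was lower with RIPK3 than with BimS medium (-0.39, adjusted p = 2.97e-05).

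Of 16 further selective receptors, 0 rose and 2 fell with BimS and 1 rose and 5 fell with RIPK3 medium in cDC1s, and 2 fell with either medium in cDC2s, where 15 of the 16 were tested. The block gave 2 higher and 5 lower with BimS and 4 higher and 4 lower with RIPK3 medium in cDC2s, and 0 higher and 4 lower with BimS medium in cDC1s. The falls with RIPK3 medium in cDC1s included Stbd1 (-0.42), Fundc1 (-0.35) and Retreg1 (-0.32), receptors for glycogen, mitochondria and the endoplasmic reticulum. In cDC2s Retreg1 (-0.46) and Bnip3l (-0.28) fell with BimS medium and Fundc1 (-0.35) and Bnip3l (-0.34) with RIPK3 medium.

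The 22 genes of mTORC1 and AMPK control, of which Prkaa2 was not tested in cDC1s, had calls in both directions, as had all genes tested. In this list 4 rose and 3 fell with BimS and 6 rose and 5 fell with RIPK3 medium in cDC1s, and 1 rose and 2 fell with either medium in cDC2s. Under the block, 2 were higher and 5 lower with BimS and 3 higher and 6 lower with RIPK3 medium in cDC2s. Ddit4, whose product REDD1 restrains mTORC1, was at 41.8 ± 6.43 CPM (SD, n = 3) in cDC2s with WT, 65.7 ± 4.69 CPM (n = 3) with BimS and 105 ± 7.40 CPM (n = 2) with RIPK3 medium, and was higher with RIPK3 than with BimS medium by 0.67 (adjusted p = 0.00699). In cDC1s it rose with RIPK3 medium (0.75, adjusted p = 1.27e-06). Deptor, the gene of an mTOR inhibitor, fell in all 4 comparisons with WT, by 0.43 and 0.45 in cDC1s and by 0.78 and 1.06 in cDC2s. The values in cDC2s had SE 0.208 and 0.247 (adjusted p = 0.0255 and 0.00897). Its levels were low, with means of 7.03, 5.22 and 5.13 CPM in cDC1s with WT, BimS and RIPK3 medium. In cDC2s they were 3.97, 2.29 and 1.90 CPM. Folliculin and its partners act on the kinase access of TFEB and TFE3. Flcn and Fnip2 rose in cDC1s with BimS medium, by 0.58 (adjusted p = 4.87e-07) and 0.45 (adjusted p = 6.04e-07), and Fnip1 and Fnip2 were lower with RIPK3 than with BimS medium (-0.65, adjusted p = 5.66e-08, and -0.56, adjusted p = 1.42e-07).

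Among 10 transcription factors of autophagy genes, 3 rose and 3 fell with BimS and 3 rose and 0 fell with RIPK3 medium in cDC1s, and 1 rose and 1 fell, and 1 rose and 0 fell, in cDC2s. There the block gave 3 higher and 4 lower with BimS and 5 higher and 2 lower with RIPK3 medium. Mitf, a relative of TFEB, was at 7.18 ± 0.514, 15.8 ± 0.772 and 20.8 ± 2.29 CPM in cDC1s (SD, n = 3) and rose by 1.14 (adjusted p = 1.02e-10) and 1.54 (adjusted p = 1.85e-14). In cDC2s it rose by 1.21 (adjusted p = 5.38e-07) and 1.27 (adjusted p = 7.48e-07). Foxo1 rose in cDC1s by 0.56 and 0.72, and Tfeb itself fell by 0.33 with BimS medium in cDC1s (adjusted p = 0.0341).

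Exons of several members overlap genes on the opposite strand, and the strand setting of the counting is not given in the sources used here, so reads from both cannot be told apart. For Sqstm1 (GRCm39, chr11:50089572-50107684, minus strand) the overlap was 1553 bases, with Mrnip and Mgat4b, and for Atg13 it was 3442 bases, mainly with Arhgap1. It was 1711 bases for Uvrag, 1146 bases for Gabarapl1, 1211 bases for Tecpr1 and 3006 bases for Atg4d. The genes opposite Uvrag and Gabarapl1 had far fewer reads than these members. For Atg10 the overlap was 173 bases, mainly with Rps23, and for Atg9a it was 924 bases, with Ankzf1. Rps23 and Ankzf1 had more reads than Atg10 and Atg9a. Counts per sample were 22 to 64 for Atg10 and 198 to 345 for Atg9a. The share of such reads in the counts of members was not tested. Nbr1, Calcoco1, Ulk1, Wipi2, Atg7, Map1lc3a, Gabarap, Gabarapl2, Epg5 and Stx17 (chr4:48124908-48186507, plus strand) had no such overlap.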

How the data were processed

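Bulk polyadenylated RNA of sorted cDC1s and cDC2s was sequenced in 17 samples. The authors trimmed paired-end reads with SeqPurge, aligned them to GRCm39 with STAR 2.7.10a and Ensembl gene models and counted them with gensum, and the deposited counts are reads per gene without normalization. The deposited normalized values are on a log2 scale, made by the authors from the same counts, and served only as an alternative.

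Of 31239 lines in the count table, 148 without a gene identifier (0.0258% to 0.0366% of reads) were left out, and 30854 of 31091 identifiers were matched to GENCODE M39. A gene was tested in a fit when 50% or more of its samples had a nonzero count. Tests were run in R 4.3.3 with edgeR 4.0.16 (quasi-likelihood, robust, TMM), in place of the limma fit on log2(count + 1) that the study's methods describe, since the values are counts. cDC1 and cDC2 samples were fitted apart for the media, and together for cell types and interactions. Alternatives were RLE size factors, DESeq2 1.42.0, the filter filterByExpr, no filter, 3 limma 3.58.1 fits (log2(count + 1), log2 CPM and the deposited values), a replicate block, 1 fit of all 17 samples, WT medium alone and leaving out each sample. The procedure was tested on simulated data.

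After removal of group means, same-numbered samples of one cell type correlated above 0.1 in 16 of 16 pairs, and differently numbered ones in 4 of 32, so the numbers were taken to pair samples within, but not across, cell types (19 of 24 and 5 of 48 there).

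The members and the further lists were chosen with earlier results of these data known. Genes were named by rule: members that passed, with at most 5 rises and 5 falls per comparison in full, Sqstm1 and the ATG8 family in any case, and at most 3 genes that passed per further list and comparison. A member outside these is named where only the block called it between media. One further list and some genes are not reported here.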

Additional observations from a re-analysis of the deposited data

How the results depend on the processing

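The 65 calls of members gave 1426 values under the alternatives, of which 1348 kept direction and side of the threshold, 77 lost significance and 1 reversed: Atg13 between cDC1s and cDC2s was 0.01 (adjusted p = 0.934) with limma on log2(count + 1). In all, 32 calls held under every alternative run. That limma fit does not scale to library size and moved the median of all genes to -0.12 and -0.17 for RIPK3 against WT medium in cDC1s and cDC2s and to 0.20 for cDC1s against cDC2s, where it called 18 members higher and 10 lower. It called 5 and 7 members with BimS and RIPK3 medium in cDC1s, 0 for RIPK3 against BimS medium in cDC1s, and 2 with either medium in cDC2s. The deposited normalized values gave 1 member for RIPK3 against BimS medium in cDC1s. The filter filterByExpr gave 7 with BimS medium in cDC2s, and no filter gave 1 for the interaction of BimS against WT. One fit of all 17 samples gave 0 for RIPK3 against BimS medium in cDC1s, and 7 and 10 with BimS and RIPK3 medium in cDC2s. The replicate block gave 5 for RIPK3 against BimS medium in cDC1s, 13, 17 and 8 in cDC2s (BimS, RIPK3, RIPK3 against BimS medium), 34 between cell types (Atg101 added, -0.10, adjusted p = 0.0495), and 2, 1 and 0 for the interactions. Those were Sqstm1 (0.26, adjusted p = 0.0199) and Tecpr1 (0.44, adjusted p = 0.0181) for BimS against WT, both higher in the response of cDC1s, and Map1lc3b (-0.36, adjusted p = 0.0134), lower in it, for RIPK3 against WT. Across cell types 19 of 24 same-numbered pairs correlated above 0.1. The causes were not tested.

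Leaving out 1 sample gave 0 to 3 members for RIPK3 against BimS medium in cDC1s (0 without BimS replicate 3), 3 to 8 with BimS medium in cDC2s (8 without WT replicate 3), 2 to 8 with RIPK3 medium in cDC2s (2 without RIPK3 replicate 1, 8 without WT replicate 3) and 0 to 1 for the interaction of RIPK3 against WT (1 without cDC2 WT replicate 3 or cDC1 RIPK3 replicate 2). With 2 samples of cDC2s with RIPK3 medium, the spread there rests on the other groups of the fit. Depth limits Atg10 and Wipi1, with as few as 22 and 58 reads in a sample.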
